A study of Mus musculus with 18 samples.

Results

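Glycolysis and the response to low oxygen were followed through 36 genes: 4 transporters of glucose and lactate, 16 enzymes of glycolysis, 4 genes that set the fate of pyruvate, 2 regulators of fructose 2,6-bisphosphate, 2 prolyl hydroxylases that act on hypoxia-inducible factor, and 8 other genes that respond to hypoxia. The genes were taken by symbol from a fixed list, a rule that uses no threshold on a measured value. The list was written with earlier results of these data known. All 36 were found among the 26157 symbols of the day-2 count table and among the 54114 symbols of the table that holds ES cells and days 8 and 16. All 36 passed the filter on low counts in every fit.

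RNA sequencing was done on mouse embryonic stem (ES) cells and on cells of embryoid bodies (EBs), the aggregates that ES cells form when they differentiate. Every sample came from a line with a tdTomato reporter at Msx1, a homeobox gene of ectomesenchyme. ES cells were wild type and untreated. EBs of day 2 carried an inducible Dlx2 or an inducible GFP gene and were read as induced with 1 µg/ml doxycycline, and Dlx2 encodes a homeobox factor of the branchial arches. Cells of days 8 and 16 all carried the inducible Dlx2 gene, all had doxycycline, and were sorted by flow cytometry into Msx1+ and Msx1- fractions. Each of the 7 groups had 2 libraries. The day-2 comparison thus set an induced Dlx2 line against an induced GFP line, and uninduced EBs were not analysed here. At days 8 and 16 both fractions came from induced Dlx2 EBs, and no GFP or uninduced group was analysed at those days. The labels do not say whether the 2 libraries of a group came from separate cultures, so p-values measure only the spread between these samples. They also do not say whether a line was 1 clone.

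Glycolysis turns glucose into pyruvate in the cytosol, and lactate dehydrogenase turns pyruvate into lactate when it is not burned in mitochondria. Many of its enzymes exist as isozymes made by separate genes. In low oxygen the hypoxia-inducible factors HIF-1α and HIF-2α escape hydroxylation by prolyl hydroxylases and degradation through the von Hippel-Lindau protein, pair with ARNT, and bind short sites with the core letters ACGTG or GCGTG, the hypoxia response element. Pluripotent stem cells are known for high glycolytic flux, and HIF target genes include transporters, glycolytic enzymes, pyruvate dehydrogenase kinases and enzymes that hydroxylate collagen.

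Libraries held 26211608 to 41552818 counts at day 2 and 53797597 to 107770730 in the other table. Dlx2 and Msx1, the induced gene and the sorted marker, were higher in Dlx2 EBs and in Msx1+ cells in every comparison, with Msx1 at 1.32 against 15.1 CPM (the usual depth-scaled count, here with TMM factors) at day 2, 1.46 against 43.8 CPM at day 8 and 0.785 against 77.7 CPM at day 16. Markers of other cell states moved with the same groups. The 10 pluripotency markers summed to 5906 and 5996 CPM in the GFP and 1188 and 1229 CPM in the Dlx2 libraries. They summed to 5727 and 5831 CPM in Msx1- and 1441 and 1448 CPM in Msx1+ cells of day 8, and to 3969 and 4150.3 against 240.2 and 254 CPM at day 16. All 10 fell in each of the 3 comparisons. The mesenchyme markers summed to 14.1 and 14.8 against 1520.4 and 1538 CPM at day 2, 63.6 and 65 against 2165 and 2421 CPM at day 8 and 714 and 792 against 16899.5 and 18253 CPM at day 16, and every tested one rose (8 of 8 at day 2, 9 of 9 at days 8 and 16). Endoderm markers differed by day. At day 2 they summed to 4 and 4.47 CPM in GFP and 27.8 and 28.9 CPM in Dlx2 EBs, where 4 of 5 tested rose and none fell. At day 8 they summed to 32.2 and 35.2 CPM in Msx1- and 36.6 and 41 CPM in Msx1+ cells (2 of 8 rose and 4 fell), and at day 16 to 385 and 393 against 120.0 and 124 CPM (6 of 8 fell and none rose). No pluripotency, mesenchyme or endoderm marker with a row was at 0 in both libraries of a day-2 or sorted group, and Prrx1, Postn and Ttr were at 0 in both ES libraries. The part of these cell states in the results below was not tested, and in bulk samples fewer cells of a type and less RNA per cell cannot be told apart.

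The 16 glycolytic enzyme genes took a smaller share of all counts in Dlx2 EBs and in Msx1+ cells. They held 0.998% and 1.04% of counts in the 2 GFP libraries and 0.584% and 0.602% in the 2 Dlx2 libraries. At day 8 they held 1.39% and 1.41% in Msx1- and 0.887% and 0.873% in Msx1+ cells. At day 16 the shares were 1.2% and 1.19% in Msx1- and 0.498% and 0.496% in Msx1+ cells. ES cells stood at 1.18% and 1.15%. The groups compared did not overlap at any of the 3 days, and the smallest share of all 7 groups was that of day-16 Msx1+ cells.

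A gene was called when edgeR's quasi-likelihood test gave a Benjamini-Hochberg adjusted p under 0.05 over all genes tested. In Dlx2 against GFP EBs, 23 members fell and 6 rose, on a background of 67.2% of all 18650 genes tested called (34.1% higher, 33% lower). The median log2 fold change was -0.53 over the members and 0.02 over all genes. In Msx1+ against Msx1- cells of day 8, 22 members fell and 8 rose, where 54.7% of all 22294 genes were called (30.4% higher, 24.3% lower). The medians there were -0.50 and 0.06. At day 16, 25 members fell and 7 rose, against 62.1% of all genes called (31.1% higher, 31% lower), with medians of -1.18 and -0.02. The share of members called lower was thus above the background share in all 3 comparisons, and the share called higher was below it. Because the list was chosen with earlier results of these data known, these shares describe the list and do not test it. When TMM factors were replaced by library size alone, the median over all genes was 0.20 at day 2 and 0.22 at day 8. The split of all called genes then went from 50.8% to 63.6% higher at day 2 and from 55.6% to 66.8% higher at day 8, and the members split 7 higher to 19 lower and 10 higher to 21 lower.

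The same 16 members were called lower in all 3 comparisons: Slc2a1, Slc2a3, Slc16a3, Hk2, Gpi1, Pfkl, Pfkp, Aldoa, Tpi1, Pgk1, Pgam1, Eno1, Pkm, Ldha, Pdk1 and Bnip3. Of the 18122 genes tested in all 3, 2849 (15.7%) were called lower in each. No member was called higher in all 3, 11 were called in both directions, and Gapdh was called in none. The shares of all genes with these patterns were not computed, so these counts only describe the list. With 2 libraries against 2, the smallest p that an exact permutation test of 1 gene can give is 0.333, so the calls rest on the fit across all genes.

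**Figure D1:**
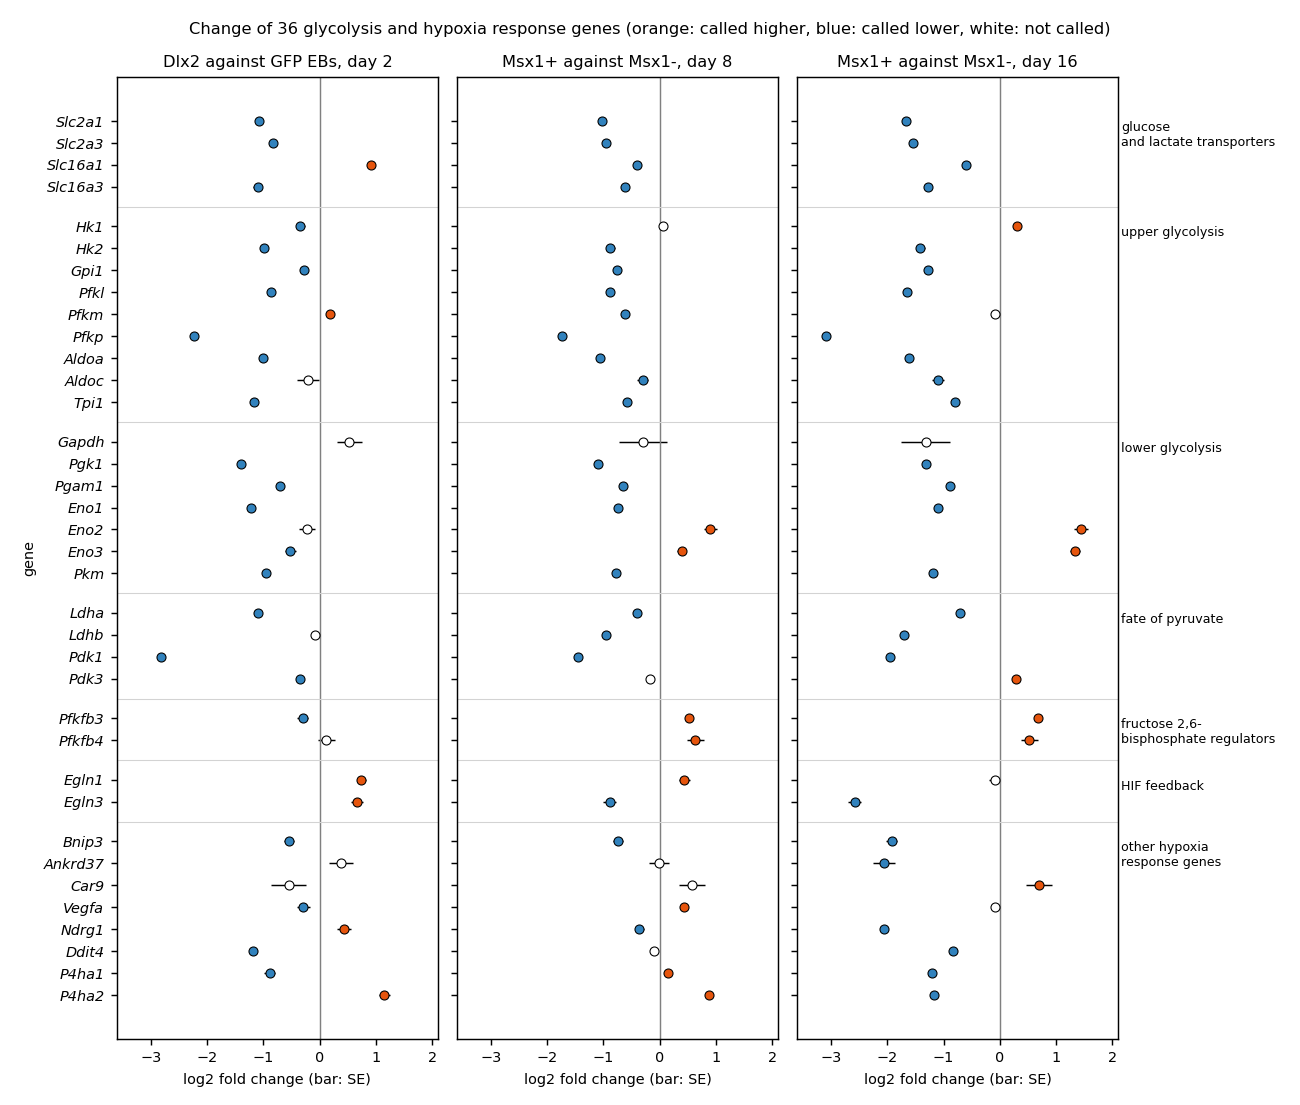
Log2 fold change of each of the 36 members (points, bars give the SE) in Dlx2 against GFP EBs at day 2 and in Msx1+ against Msx1- cells at days 8 and 16, ordered by role. Most points lie left of 0 in every panel, with Pdk1 at -2.82 at day 2 and Pfkp at -3.09 at day 16 farthest out. The hypoxia genes at the bottom lie on both sides at days 2 and 8. At day 16 only Car9 among them lies right of 0.

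The letters ACGTG or GCGTG, searched on both strands in the 250 bases before each RefSeq transcription start (GRCm38.p6), were present for 31 of the 34 members with a promoter entry. By window this was 39 of 48 (81.2%), against 38.6% of 32851 windows of all genes. ACGTG alone was in 21 of the 34 genes and 50% of their windows, against 16.6% of all windows. The members' windows also held more CpG, a median of 14 CpG dinucleotides per window against 6, and both motifs contain CG. Where ACGTG stands on both strands in overlap the letters read CACGTG, which is also an E-box. Gpi1, Tpi1 and Eno2 held neither motif in their windows, although Gpi1 and Tpi1 fell in all 3 comparisons. A match is a description of the letters and says nothing of binding in these cells.

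The 6 windows shown were chosen after the values were seen: 4 enzymes that fell in every comparison, of which Tpi1 holds no match, and both collagen prolyl hydroxylase genes, which did not. Each is written 5′ to 3′ along the gene, ends at the base before the start, and has the motifs of both strands in capitals (CACGT and CACGC are the reverse-strand forms). Pgk1 lies at chrX:106186850-106187099 on the plus strand and holds 2 ACGTG motifs. Ldha lies at chr7:46845554-46845803 on the plus strand and holds 5 ACGTG motifs, of which 4 form 2 copies of CACGTG. Pdk1 lies at chr2:71872974-71873223 on the plus strand and holds 1 GCGTG. Tpi1 lies at chr6:124814159-124814408 on the minus strand. P4ha1 lies at chr10:59323046-59323295 and P4ha2 at chr11:54100674-54100923, both on the plus strand, and each holds 1 ACGTG and 2 GCGTG motifs.
Pgk1: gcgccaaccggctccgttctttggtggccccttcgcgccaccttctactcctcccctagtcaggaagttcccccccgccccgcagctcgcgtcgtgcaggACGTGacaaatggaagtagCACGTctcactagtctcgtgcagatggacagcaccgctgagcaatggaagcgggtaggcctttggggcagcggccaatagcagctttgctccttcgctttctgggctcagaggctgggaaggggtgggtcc
Ldha: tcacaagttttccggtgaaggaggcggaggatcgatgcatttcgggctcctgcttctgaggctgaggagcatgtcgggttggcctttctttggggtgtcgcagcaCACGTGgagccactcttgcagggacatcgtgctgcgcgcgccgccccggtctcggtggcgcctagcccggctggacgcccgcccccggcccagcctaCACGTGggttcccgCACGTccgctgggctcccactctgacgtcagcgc
Pdk1: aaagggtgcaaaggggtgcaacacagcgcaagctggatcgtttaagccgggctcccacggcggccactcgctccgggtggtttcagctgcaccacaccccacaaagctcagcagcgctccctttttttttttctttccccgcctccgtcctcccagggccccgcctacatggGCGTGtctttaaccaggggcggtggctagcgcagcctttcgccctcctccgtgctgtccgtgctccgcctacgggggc
Tpi1: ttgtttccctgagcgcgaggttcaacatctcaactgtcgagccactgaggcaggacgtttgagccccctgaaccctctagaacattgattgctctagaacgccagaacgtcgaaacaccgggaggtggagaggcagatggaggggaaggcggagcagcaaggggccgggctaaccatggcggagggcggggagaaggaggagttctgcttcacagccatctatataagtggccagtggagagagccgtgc
P4ha1: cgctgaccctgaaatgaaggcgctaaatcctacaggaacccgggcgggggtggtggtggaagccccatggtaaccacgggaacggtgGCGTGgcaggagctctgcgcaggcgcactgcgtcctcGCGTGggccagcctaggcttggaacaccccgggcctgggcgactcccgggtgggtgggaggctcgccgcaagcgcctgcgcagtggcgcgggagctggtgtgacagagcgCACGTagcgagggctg
P4ha2: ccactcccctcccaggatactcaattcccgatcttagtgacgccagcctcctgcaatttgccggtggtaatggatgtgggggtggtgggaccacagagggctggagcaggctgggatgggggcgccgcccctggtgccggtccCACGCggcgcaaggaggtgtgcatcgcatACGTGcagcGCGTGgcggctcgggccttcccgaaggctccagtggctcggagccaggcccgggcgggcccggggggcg

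Both glucose transporter genes fell in every comparison. Slc2a1, which encodes the widespread glucose transporter GLUT1 (GRCm38 chr4:119108711-119137983), had 524 and 515 CPM in the GFP and 241 and 253 CPM in the Dlx2 libraries (log2 fold change -1.07, SE 0.048, edgeR adjusted p = 7.62e-15). At day 8 it had 745 and 765 CPM in Msx1- and 361 and 382 CPM in Msx1+ cells (log2 fold change -1.03, SE 0.059, edgeR adjusted p = 1.72e-09), and at day 16 954 and 1016 against 320.0 and 303 CPM (log2 fold change -1.66, SE 0.06, edgeR adjusted p = 6.55e-12). The Msx1- level lay above and the Msx1+ level below the 462 and 466 CPM of ES cells on both days, with no overlap of libraries. Slc2a3, which encodes the high-affinity transporter GLUT3, followed with log2 fold changes of -0.82, -0.96 and -1.54 at days 2, 8 and 16. Its level reached 2359 and 2442 CPM in Msx1- and 798 and 856 CPM in Msx1+ cells of day 16.

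The 2 monocarboxylate transporter genes parted at day 2. Slc16a3, which encodes the lactate exporter MCT4, had 50.5 and 48.8 CPM in GFP and 22.7 and 23.7 CPM in Dlx2 EBs and fell (log2 fold change -1.10, SE 0.077, edgeR adjusted p = 1.98e-11). Slc16a1, which encodes MCT1, had 156 and 147 and 287 and 283 CPM and rose (log2 fold change 0.91, SE 0.049, edgeR adjusted p = 2.28e-13). In the sorted fractions both were lower in Msx1+ cells, Slc16a3 by log2 fold changes of -0.62 and -1.27 and Slc16a1 by -0.41 and -0.60 at days 8 and 16. Slc16a1 was thus the only transporter gene whose direction differed between the day-2 and the sorted comparisons, 2 experiments that were not tested against each other.

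Of the 9 genes of upper glycolysis, from glucose to triose phosphate, 7 fell and 1 rose at day 2, 8 fell at day 8, and 7 fell and 1 rose at day 16. The shares of all genes called lower were 33%, 24.3% and 31%. Hk2, the hexokinase gene that cells raise with growth and hypoxia, had 219.9 and 221 CPM in GFP and 113 and 111 CPM in Dlx2 EBs (log2 fold change -0.98, SE 0.049, edgeR adjusted p = 4.69e-14). It fell in Msx1+ cells from 348 and 349 to 179 and 201 CPM at day 8 and from 238 and 266 to 102 and 88.7 CPM at day 16, where the log2 fold change was -1.41. ES cells had more Hk2 than any sorted group, 615 and 608 CPM. Hk1, the constitutive hexokinase gene, stayed between 29.1 and 72.1 CPM in all 14 libraries. Hk1 fell at day 2 (log2 fold change -0.34, edgeR adjusted p = 0.00059, and 0.0662 with library size alone), had 0.05 at day 8 (edgeR adjusted p = 0.553) and rose in Msx1+ cells of day 16 by 0.31.

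Phosphofructokinase, the main control point of glycolysis, is built from subunits of 3 genes that behaved differently. Pfkp, the platelet-type subunit gene (GRCm38 chr13:6579768-6648777, minus strand), fell most of the 9. It had 247 and 244 CPM in GFP and 53.1 and 50.5 CPM in Dlx2 EBs (log2 fold change -2.24, SE 0.052, edgeR adjusted p = 5.82e-20). It had 668 and 664 CPM in Msx1- and 196 and 203 CPM in Msx1+ cells of day 8 (log2 fold change -1.74, SE 0.063, edgeR adjusted p = 9.43e-12). At day 16 the levels were 616 and 591 against 74.9 and 66.9 CPM (log2 fold change -3.09, SE 0.067, edgeR adjusted p = 2.98e-14), a difference of 8.52-fold and the largest fall of any member there. ES cells had 602 and 593 CPM of Pfkp, which overlapped the Msx1- cells of day 16 and lay below those of day 8. Pfkp shares 748 bases with Pitrm1 on the genome, which reads from a kit without strand cannot separate, and Pitrm1 itself had log2 fold changes of -1.05, -0.41 and -0.04 in the 3 comparisons.

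Pfkl, the liver-type subunit gene, fell by log2 fold changes of -0.86, -0.88 and -1.65. Pfkm, the muscle-type subunit gene, did not follow: it had 56.3 and 60.5 CPM in GFP and 64.6 and 68.9 CPM in Dlx2 EBs. It was called higher there (log2 fold change 0.19, edgeR adjusted p = 0.0124), but not without Dlx2 replicate 2 (edgeR adjusted p = 0.113) or without GFP replicate 1 (0.209). Pfkm fell in Msx1+ cells of day 8 (-0.61), and at day 16 the fractions had 74.9 and 71.4 and 69.8 and 68 CPM (log2 fold change -0.09, edgeR adjusted p = 0.208).

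Gpi1, the isomerase between the hexose phosphates, fell with log2 changes of -0.27, -0.76 and -1.27 on the log2 scale. The day-2 call of Gpi1 was lost with library size alone (-0.10, edgeR adjusted p = 0.0802). Aldoa, the main aldolase gene, went from 943 and 985 CPM in GFP to 479 and 488 CPM in Dlx2 EBs and from 1704 and 1703 CPM in Msx1- to 540.1 and 571 CPM in Msx1+ cells of day 16 (log2 fold changes -1.0 and -1.62). Aldoc, the brain-type aldolase gene, was low everywhere, at most 17.8 CPM. Aldoc had 3.57 and 4.89 CPM in GFP and 3.58 and 3.76 CPM in Dlx2 EBs, which overlap (edgeR adjusted p = 0.36), and fell in Msx1+ cells of day 16 (-1.10). Its day-8 fall (-0.30, edgeR adjusted p = 0.0247) was lost without either Msx1+ replicate (0.0722 and 0.095), without Msx1- replicate 2 (0.0957) and with library size alone (0.276). Tpi1, the triose phosphate isomerase whose promoter holds no motif, fell from 233 and 243 to 103.6 and 107.9 CPM at day 2 (log2 fold change -1.17, SE 0.05, edgeR adjusted p = 2.95e-15), and with log2 changes of -0.59 and -0.79 at days 8 and 16.

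In lower glycolysis, from triose phosphate to pyruvate, 5 of 7 genes fell and none rose at day 2, and 4 fell and 2 rose at days 8 and 16. Among all genes, 33%, 24.3% and 31% were called lower on the 3 days. Pgk1, the phosphoglycerate kinase that makes the first ATP of the pathway, had 698 and 698 CPM in GFP and 265 and 268 CPM in Dlx2 EBs (log2 fold change -1.39, SE 0.047, edgeR adjusted p = 4.87e-17). In the sorted cells it had 1067 and 1074 CPM in Msx1- and 511 and 493 CPM in Msx1+ cells of day 8, and 971 and 948 against 375 and 399 CPM at day 16 (log2 fold changes -1.09 and -1.31). Pkm, the pyruvate kinase gene and the member with the most counts, fell from 3684 and 3760.1 to 1880.4 and 1972 CPM at day 2 (log2 fold change -0.95, SE 0.048, edgeR adjusted p = 6.81e-14). It also fell from 3390.2 and 3354 CPM in Msx1- to 1508 and 1448 CPM in Msx1+ cells at day 16 (log2 fold change -1.19). Pgam1, the mutase between them, fell with log2 changes of -0.70, -0.65 and -0.88.

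The 3 enolase genes moved in opposite directions. Eno1, the ubiquitous α-enolase gene, fell from 3001 and 3150.1 to 1294 and 1339 CPM at day 2 (log2 fold change -1.22, SE 0.049, edgeR adjusted p = 8.52e-16), and with log2 changes of -0.74 and -1.09 in Msx1+ cells of days 8 and 16. Eno2, the neuronal γ-enolase gene, had 13.5 and 13.1 CPM in Msx1- and 26.9 and 22.9 CPM in Msx1+ cells of day 8 and 13.6 and 10.2 against 31.8 and 32.6 CPM at day 16. Eno2 rose on both days (0.90 and 1.44, edgeR adjusted p = 1.46e-05 and 9.04e-08). Eno3, the muscle β-enolase gene, rose in Msx1+ cells of day 16 from 16.2 and 14.3 to 37 and 40 CPM (log2 fold change 1.34, SE 0.085, edgeR adjusted p = 3.66e-09) and at day 8 by 0.39, whereas it fell in Dlx2 EBs (-0.52). Eno2 at day 2 had 7.55 and 8.85 against 7.14 and 6.97 CPM (edgeR adjusted p = 0.18). Markers of other cell types gave these values beside Eno2 and Eno3: 6 neuron markers summed to 198 and 199.7 CPM in Msx1- and 81.8 and 91.2 CPM in Msx1+ cells of day 16 (3 rose and 3 fell), and 6 muscle markers to 14.7 and 15.7 and 27.5 and 28.3 CPM (3 of 5 tested rose and 1 fell). ES cells had a neuron sum of 410 and 422 CPM, of which Stmn2 held 298 and 317 CPM. That sum is thus no measure of neurons alone. The part of muscle or neuron RNA in the enolase values was not tested.

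Gapdh, the glyceraldehyde phosphate dehydrogenase often used as a reference gene, could not be read from its own row. Of its 50-base windows, 82.5% also occur in other genes, 215 of them annotated as pseudogenes. The Gapdh row had 244 and 114 CPM in the 2 Msx1+ libraries of day 8 and 237 and 156 CPM in the 2 Msx1- libraries of day 16, a wider spread than that of its neighbours in the pathway. Its log2 fold changes of 0.53, -0.30 and -1.32 were not called (edgeR adjusted p = 0.165, 0.615 and 0.0573). The rows of 212 of these pseudogenes held 286.6 to 885 CPM per library of the later table, against 78.6 to 243.9 CPM on the Gapdh row. With these rows added, an alternative chosen after seeing the data, the sum fell in Msx1+ cells by 0.75 at day 8 and 1.04 at day 16 on the log2 scale (edgeR adjusted p = 3.81e-07 and 8.45e-09). At day 2 the summed value was 0.09 (edgeR adjusted p = 0.667), with 72 pseudogene rows in that table.

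**Figure D2:**
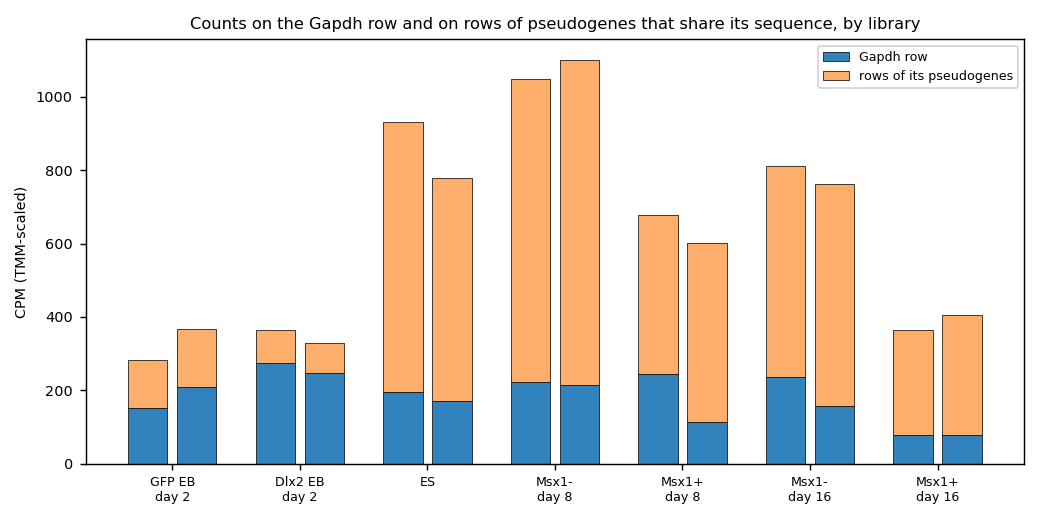
TMM-scaled CPM of the Gapdh row (blue) and of the rows of its pseudogenes (orange) in each of the 14 libraries, stacked. Pseudogene rows hold more counts than Gapdh itself in all 10 libraries of the later table, and the sum is lower in Msx1+ than in Msx1- cells on both days while the Gapdh row alone varies between replicates.

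Shared sequence also touched other rows. The share of 50-base windows found in another gene was 72.2% for Eno1, 68% for Pgk1, 62.4% for Bnip3, 41.5% for Pgam1, 34.4% for Pkm and 27% for Ldhb, so how counts were divided between these genes and their copies is uncertain. Smaller shares were 25.3% for Gpi1, 17.1% for Pfkp, 16.6% for Ldha, 14.6% for Ndrg1, 13.5% for Aldoa and 11.4% for Ankrd37. The share was 0% for Hk2, Pdk1, Pdk3, Egln1, Egln3, Ddit4, P4ha1 and P4ha2, among others.

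Pdk1 had the lowest log2 fold change of the 36 members at day 2. It encodes pyruvate dehydrogenase kinase, which shuts the entry of pyruvate into the mitochondrial cycle, and lies at GRCm38 chr2:71873224-71903858. It had 249 and 259 CPM in the GFP and 36.4 and 35.3 CPM in the Dlx2 libraries, a difference of 7.07-fold (log2 fold change -2.82, SE 0.054, edgeR adjusted p = 1.96e-21). It also fell in Msx1+ cells from 289.7 and 293 to 104 and 110.5 CPM at day 8 (log2 fold change -1.45, SE 0.059, edgeR adjusted p = 3.4e-11) and from 164 and 172 to 42.5 and 44.7 CPM at day 16 (log2 fold change -1.95, SE 0.061, edgeR adjusted p = 1.26e-12). Pdk1 in Msx1+ cells of day 8 lay below ES cells, which had 277 and 265 CPM. Pdk3, which encodes another kinase of the complex, fell at day 2 (-0.35), had -0.17 at day 8 (edgeR adjusted p = 0.0614) and rose with a log2 change of 0.28 at day 16.

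The lactate dehydrogenase genes differed by day. Ldha, whose subunit favours lactate formation, fell at day 2 from 662 and 662 to 301 and 317 CPM (log2 fold change -1.10, SE 0.048, edgeR adjusted p = 5.05e-15), while Ldhb, whose subunit favours the reverse reaction, had 438 and 447 and 413 and 426 CPM (log2 fold change -0.08, edgeR adjusted p = 0.149). In the sorted cells both fell. Ldhb went from 626 and 658 CPM in Msx1- to 339.6 and 326 CPM in Msx1+ cells at day 8 and from 377 and 368 to 116 and 113 CPM at day 16 (log2 fold changes -0.95 and -1.70). Ldha fell with log2 changes of -0.40 and -0.70, from 1266 and 1281 to 760.3 and 806 CPM at day 16. No test of Ldhb against Ldha was made.

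The bifunctional enzymes that set fructose 2,6-bisphosphate, the activator of phosphofructokinase, both rose in Msx1+ cells of days 8 and 16. Pfkfb3 had 21.5 and 23.3 CPM in Msx1- and 33.4 and 30.9 CPM in Msx1+ cells of day 8, and 41.8 and 41.5 against 67.3 and 65.8 CPM at day 16 (log2 fold changes 0.52 and 0.67, edgeR adjusted p = 2.14e-05 and 8.37e-07). At day 2 it was called lower (-0.30, edgeR adjusted p = 0.0098), but not without Dlx2 replicate 2 (0.155), without GFP replicate 1 (0.056) or with library size alone (0.262). Pfkfb4, a paralog at no more than 10.1 CPM in any library, rose with log2 changes of 0.63 at day 8 and 0.52 at day 16. Without Msx1- replicate 2 its day-16 value was 0.34 (edgeR adjusted p = 0.0879).

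The 2 prolyl hydroxylases that mark hypoxia-inducible factor for degradation, themselves HIF targets, both rose at day 2. Egln1, which encodes PHD2, had 26.1 and 27.7 CPM in GFP and 44.5 and 45.6 CPM in Dlx2 EBs (log2 fold change 0.74, SE 0.077, edgeR adjusted p = 1.54e-08). Egln3, which encodes PHD3, had 10.8 and 10.6 and 17.1 and 16.5 CPM (log2 fold change 0.66, SE 0.11, edgeR adjusted p = 1.01e-05). In the sorted cells the pair parted. Egln3 fell from 49 and 49.5 to 25.2 and 28 CPM at day 8 and from 64.3 and 73.7 to 9.95 and 13.1 CPM at day 16, a 6-fold difference (log2 fold change -2.58, SE 0.11, edgeR adjusted p = 1.82e-10). Egln1 rose at day 8 (0.44) and had overlapping libraries at day 16, 86.3 and 103 CPM in Msx1- and 87.5 and 90.7 CPM in Msx1+ cells (edgeR adjusted p = 0.465).

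Of the 8 other hypoxia response genes, 4 fell and 2 rose at day 2, 2 fell and 3 rose at day 8, and 6 fell and 1 rose at day 16. Background shares called lower were 33%, 24.3% and 31%, and those called higher 34.1%, 30.4% and 31.1%. P4ha1 and P4ha2 encode the catalytic subunits of collagen prolyl 4-hydroxylase, which hydroxylates procollagen in the endoplasmic reticulum. At day 2 they went in opposite directions. P4ha1 fell from 24.6 and 25.2 to 13.2 and 13.7 CPM (log2 fold change -0.89, SE 0.091, edgeR adjusted p = 1.23e-08), and P4ha2 rose from 11.2 and 12.2 to 25.8 and 26.2 CPM (log2 fold change 1.15, SE 0.094, edgeR adjusted p = 3.35e-10).

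At day 8, P4ha2 was higher in Msx1+ cells, 55.3 and 58.3 CPM against 30.7 and 30.9 CPM (log2 fold change 0.88, SE 0.06, edgeR adjusted p = 1.02e-08). P4ha1 had 76.3 and 77.6 against 70.4 and 68.8 CPM there and was called higher (0.14, edgeR adjusted p = 0.0393), a call that was lost without any 1 of the 4 libraries (edgeR adjusted p from 0.0623 to 0.365) and with the median-ratio scaling (0.21). By day 16 both stood far higher in Msx1- cells. P4ha1 had 349.7 and 351 CPM in Msx1- and 156 and 148 CPM in Msx1+ cells, and P4ha2 243 and 243 and 112 and 105 CPM (log2 fold changes -1.21 and -1.17, edgeR adjusted p = 6.99e-11 and 2.05e-10). Both fractions of day 16 were above both fractions of day 8 and above ES cells, with 23.5 and 25 CPM of P4ha1 and 11.9 and 11.2 CPM of P4ha2.

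Ndrg1, a stress and differentiation gene, had 7.75 and 6.79 CPM in GFP and 9.48 and 10.1 CPM in Dlx2 EBs, and was called higher (0.43, edgeR adjusted p = 0.00713, and 0.0744 without Dlx2 replicate 2). It fell in Msx1+ cells, from 26.9 and 25.6 to 19.8 and 21 CPM at day 8 and from 66.2 and 65.5 to 16.4 and 15.3 CPM at day 16 (log2 fold change -2.06, SE 0.077, edgeR adjusted p = 8.69e-12). Bnip3, which encodes a receptor for the removal of mitochondria, fell from 22.9 and 22.3 to 15.5 and 15.5 CPM at day 2 and from 65.8 and 57.6 to 15.9 and 16.7 CPM at day 16 (log2 fold changes -0.54 and -1.92). Ankrd37, a small HIF target gene, had 4.54 and 4.42 CPM in Msx1- and 4.89 and 4.03 CPM in Msx1+ cells of day 8, which overlap, and 5.86 and 4.71 against 1.18 and 1.36 CPM at day 16 (log2 fold change -2.06, SE 0.2, edgeR adjusted p = 4.52e-07).

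Vegfa, the angiogenic growth factor, did not follow the enzymes. It rose in Msx1+ cells of day 8 (0.43, edgeR adjusted p = 3.01e-05) and had 106 and 99.9 CPM in Msx1- and 95.5 and 97.8 CPM in Msx1+ cells of day 16 (edgeR adjusted p = 0.206). The day-2 call of Vegfa (-0.29, edgeR adjusted p = 0.0408) was lost under 7 alternatives, among them the fits without replicate 1 of Dlx2 (0.151) or of GFP (0.0791) and without the other Dlx2 library (0.153). Ddit4, an inhibitor of mTOR signalling induced by stress, fell at day 2 from 120.0 and 136 to 53.4 and 59.1 CPM (-1.19) and at day 16 from 165 and 171 to 96.7 and 91.6 CPM (-0.84). Car9, the carbonic anhydrase that is a classic hypoxia marker, was low in every library, between 1 and 3.47 CPM. It rose in Msx1+ cells of day 16 (0.69, edgeR adjusted p = 0.0178), a call lost without Msx1+ replicate 1 (0.138) or Msx1- replicate 2 (0.145).

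**Figure D3:**
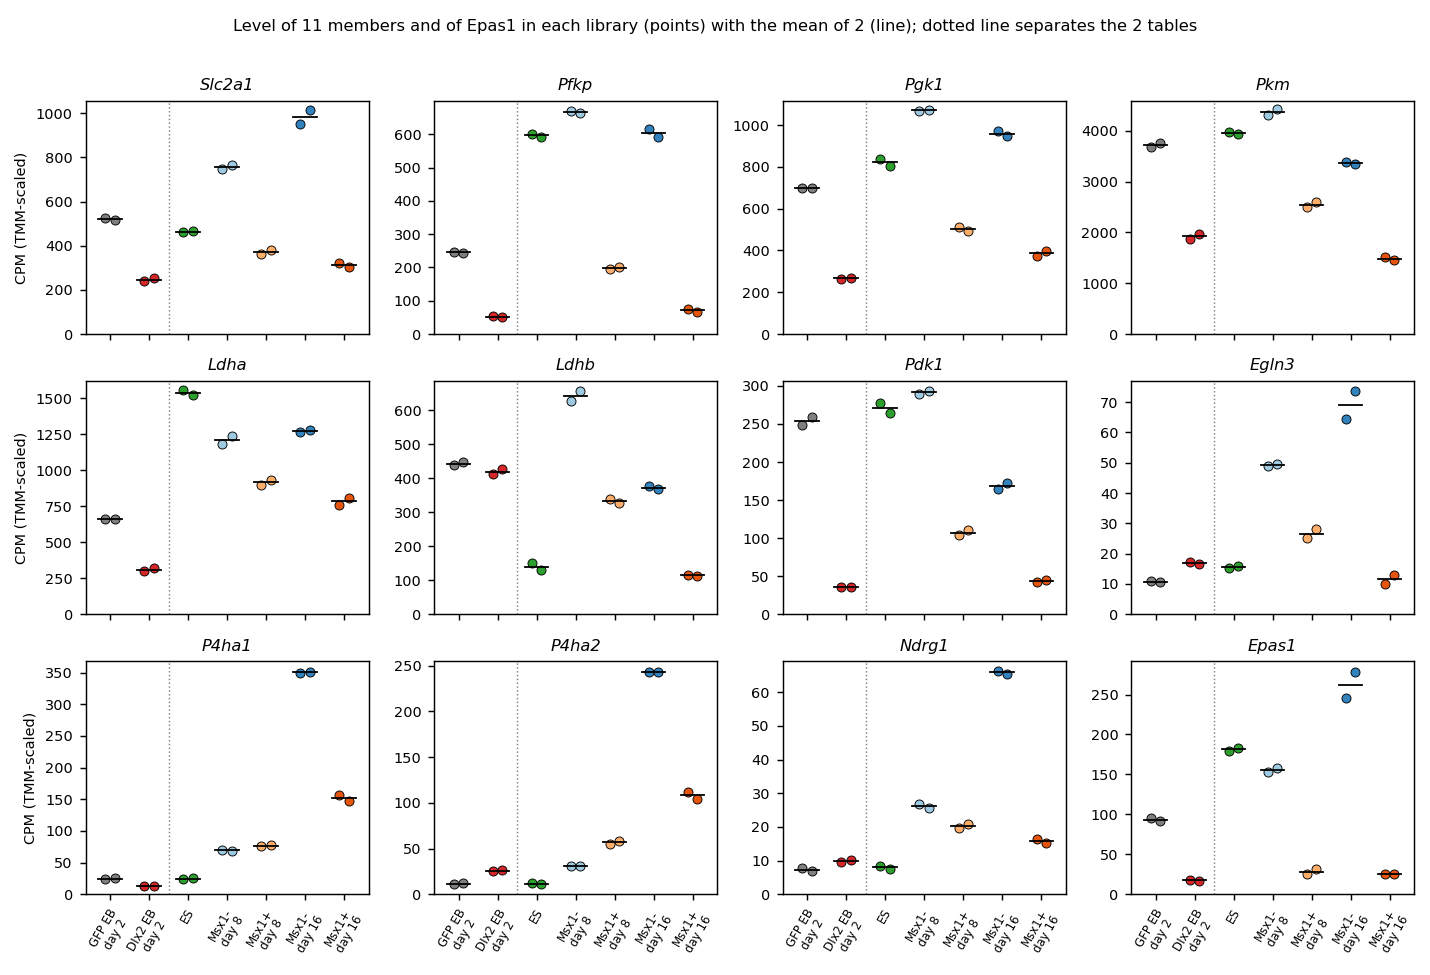
TMM-scaled CPM (linear axes from 0) of 11 members and of Epas1 in each of the 14 libraries, with the mean of each group of 2 as a line. The day-2 groups left of the dotted line and the other groups come from 2 tables scaled apart. Pdk1 falls from a mean of 254 to 35.9 CPM at day 2, and P4ha1, P4ha2 and Ndrg1 stand highest in Msx1- cells of day 16.

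Per kilobase of exon, levels of isozymes of 1 family can be set side by side. Shares are the mean ± SD of 2 libraries by the union of exons and were not tested. Their size depends on the length used: with the longest transcript, the leading isozyme was another one in 5 of 77 combinations of family and group. Pdk1 held 61.6% ± 1.7 of the Pdk1 and Pdk3 level in GFP EBs and 22.4% ± 0.066 in Dlx2 EBs. It held 68.4% ± 0.85 in Msx1- and 47.1% ± 1.4 in Msx1+ cells of day 8, and 57.1% ± 0.13 against 22.1% ± 0.48 at day 16. Pdk3 led in Dlx2 EBs and in Msx1+ cells of day 16 with either length, whereas in Msx1+ cells of day 8 the Pdk1 share with the longest transcript was 52.4%. Pfkp fell from 33.2% ± 1.2 of the phosphofructokinase level in GFP EBs to 11.2% ± 0.89 in Dlx2 EBs, and Pfkm went from 31.6% ± 0.78 to 57.8% ± 0.063. At day 16, Pfkp held 37.7% ± 1 in Msx1- and 12.4% ± 0.48 in Msx1+ cells, and Pfkm 18.3% ± 0.59 and 48.3% ± 1.1. With the longest transcript Pfkl led in Msx1+ cells of day 16, with 48.4% against 38.5% for Pfkm. Hk1 reached its highest share, 34.4% ± 1.9, in Msx1+ cells of day 16, where Msx1- cells had 13.7% ± 0.39. With the longest transcript these shares were 49.2% and 22.7%, and Hk1 led in Msx1+ replicate 2 of day 16 (50.6%).

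The share of Ldha varied widely between groups. Ldha held 83.9% ± 1.1 of the pair in ES cells, 41.5% ± 0.36 in GFP and 25.9% ± 0.27 in Dlx2 EBs, 47.1% ± 0.066 and 56.6% ± 1.4 in Msx1- and Msx1+ cells of day 8, and 61.8% ± 0.6 and 76.4% ± 1.1 at day 16. With the longest transcript Ldha was the major isozyme in GFP EBs (51.8%) and in Msx1- cells of day 8 (57.5%), where Ldhb led by the union of exons. With either length the Ldha share was lower in Dlx2 than in GFP EBs, yet higher in Msx1+ than in Msx1- cells on both days. Egln3 held 49.7% ± 0.66 of the Egln1 and Egln3 level in Msx1- cells and 14.8% ± 2.1 in Msx1+ cells of day 16. P4ha2 went from 23.7% ± 0.88 of its pair in GFP EBs to 56% ± 0.28 in Dlx2 EBs, while both fractions of day 16 stood near each other, 31.4% ± 0.049 and 32% ± 0.29. With the longest transcript P4ha2 held 38.3% in GFP and 71.9% in Dlx2 EBs, and 47.8% and 48.5% in Msx1- and Msx1+ cells of day 16. Eno2 and Eno3 together with Eno1 gave an Eno1 share of 97.3% ± 0.39 in Msx1- and 87% ± 0.4 in Msx1+ cells of day 16, where Eno3 held 9.93% ± 0.4, or 4.47% with the longest transcript. Each share was taken within a library, so the separate scaling of the 2 tables does not enter it. The tables still differ in their rows, for example 72 pseudogene rows of Gapdh at day 2 against 212 in the other. Whether counts were divided alike between isozyme genes and their copies in both tables was not tested.

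**Figure D4:**
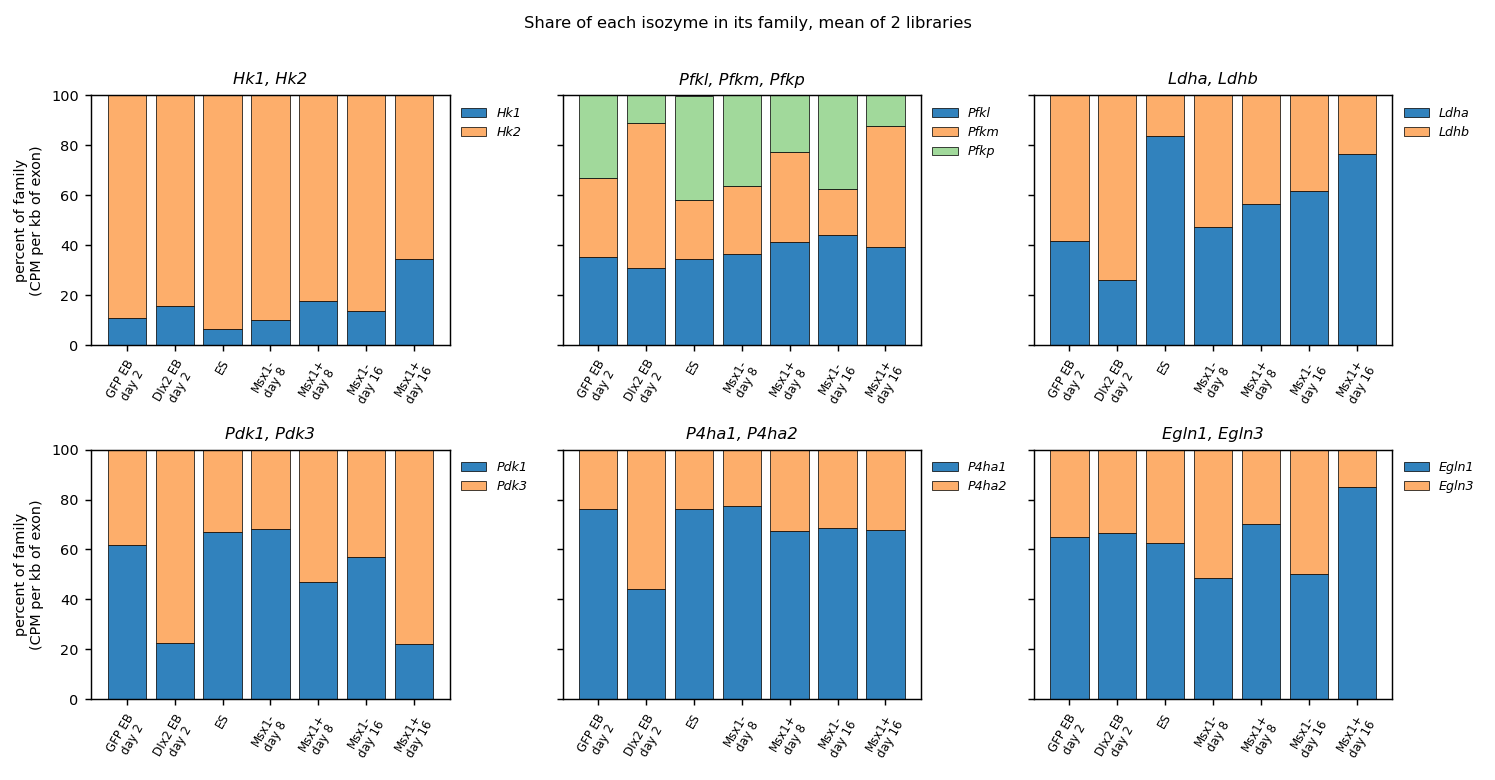
Share of each gene in its family by CPM per kilobase of the union of exons (percent, bars stacked to 100, mean of 2 libraries) in the 7 groups, for 6 families. Pdk1 and Pfkp lose share in Dlx2 EBs and in Msx1+ cells, and Hk1 and Ldha have their highest shares in Msx1+ cells of day 16 and in ES cells.

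The effect of fraction, the log2 fold change of Msx1+ against Msx1- cells, was more negative or less positive at day 16 for most members. Its median over members was -0.50 at day 8 and -1.18 at day 16. The difference of the 2 effects, tested directly, was called lower for 24 members and higher for 4, where 28.6% of all genes were called (10.3% higher, 18.3% lower) and the medians were -0.53 over members and -0.10 over all genes. With library size alone the median of all genes moved to -0.28, the share of higher calls among all called genes went from 35.9% to 15.5%, and the members split 2 higher to 27 lower. The largest differences were those of P4ha2 (log2 fold change -2.05, SE 0.083, edgeR adjusted p = 4.17e-10) and Ankrd37 (log2 fold change -2.05, SE 0.27, edgeR adjusted p = 5.45e-05). Egln3 and Ndrg1 followed, both with -1.69, and then Pfkp and P4ha1, both with -1.35. P4ha2 and P4ha1 were called higher in Msx1+ cells at day 8 and lower at day 16. The day-8 call of P4ha1 was lost with median-ratio scaling and with DESeq2. Eno3 had the largest positive difference (0.95, edgeR adjusted p = 3.28e-05). For Pgk1, Tpi1, Slc16a1, Hk1, Gapdh, Pfkfb3, Pfkfb4 and Car9 the difference was not called.

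**Figure D5:**
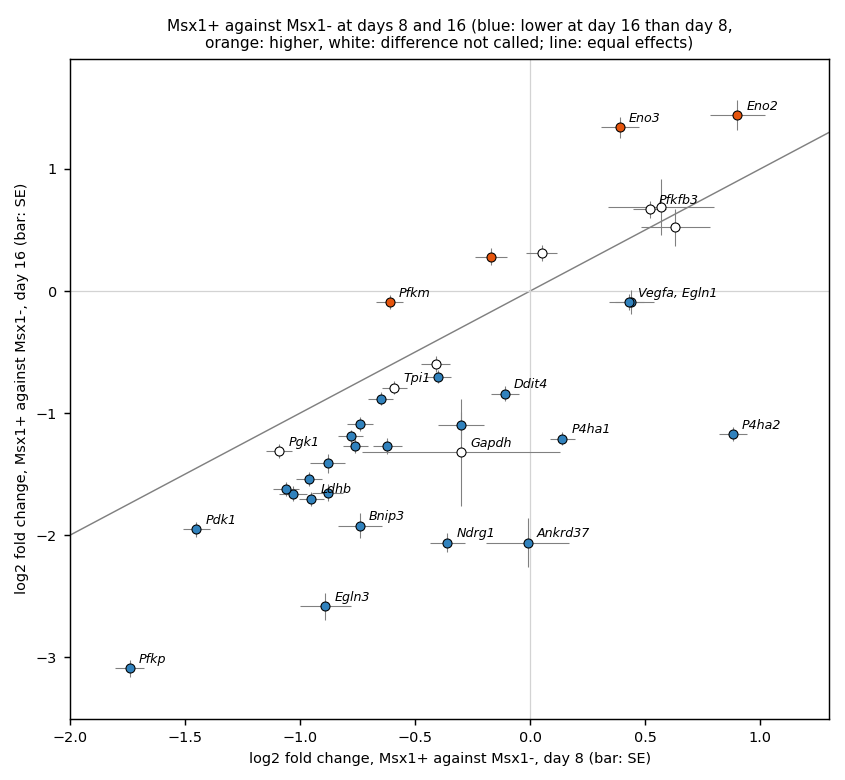
Log2 fold change of Msx1+ against Msx1- cells at day 8 (x axis) and day 16 (y axis) for the 36 members, with SE bars and a line of equal effects. Blue points, the 24 members with a called difference below the line, include P4ha2, P4ha1 and Vegfa right of 0 at day 8 and below 0 at day 16, although Vegfa at -0.09 was not called there.

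Days 8 and 16 were also compared within each fraction. In Msx1+ cells, 23 members fell and 9 rose from day 8 to day 16, with 45.9% of all genes called (21.1% higher, 24.8% lower). In Msx1- cells, 12 fell and 10 rose, with 37.6% called (19.7% higher, 17.8% lower), and with library size alone the members split 9 lower to 12 higher. The share of higher calls among all called genes went with library size alone from 46% to 34.7% in Msx1+ cells, where the median of all genes moved from -0.03 to -0.15, and from 52.5% to 62.9% in Msx1- cells. In Msx1+ cells Slc2a1, Slc2a3, Ldha and Pdk1 fell, with log2 changes of -0.26, -0.24, -0.23 and -1.30, and Pfkp fell with a log2 change of -1.49. In Msx1- cells Slc2a1, Slc2a3 and Slc16a1 rose (0.38, 0.34 and 0.72). Slc16a1 also rose in Msx1+ cells, from 126.1 and 134.9 to 182.1 and 194.4 CPM. The largest rises in Msx1- cells were those of P4ha2 (log2 fold change 2.98, SE 0.062, edgeR adjusted p = 1.99e-13), P4ha1 (2.33), Ndrg1 (1.33) and Vegfa (1.14). P4ha1, P4ha2 and Vegfa also rose in Msx1+ cells, by 0.98, 0.93 and 0.61, whereas Ndrg1 fell (-0.37).

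More members rose than fell against ES cells in both Msx1- groups. These comparisons share the 2 ES libraries. In Msx1- cells of day 8, 24 members rose and 3 fell against ES cells (33.6% of all 22504 genes called, 19% higher, 14.5% lower). With median-ratio scaling 22 members rose there, as the calls of Pfkp and Pkm were lost. In Msx1+ cells of day 8, 17 rose and 13 fell (61.5% called, 34.6% higher, 26.9% lower). In Msx1- cells of day 16, 23 rose and 9 fell (53% called, 28.5% higher, 24.5% lower), and in Msx1+ cells of day 16, 14 rose and 20 fell (71% called, 37.3% higher, 33.7% lower). P4ha2 and P4ha1 had the largest rises in Msx1- cells of day 16, 21-fold and 14.4-fold (log2 fold changes 4.39 and 3.85), followed by Ndrg1 (3.04) and Egln3 (2.14). In Msx1+ cells of day 16 the largest falls were those of Pfkp (-3.07), Hk2 (-2.68) and Pdk1 (-2.64), while P4ha2 (3.23), P4ha1 (2.65) and Pfkfb3 (2.26) rose. Hk2 was lower than in ES cells in all 4 sorted groups, by log2 fold changes from -2.68 to -0.81.

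Among the genes of the HIF machinery, the 2 main oxygen-regulated subunits differed. Hif1a, which encodes HIF-1α, had 196 and 178 CPM in GFP and 188 and 182 CPM in Dlx2 EBs (log2 fold change -0.02, edgeR adjusted p = 0.783) and 0.09 at day 8 (edgeR adjusted p = 0.207). It rose slightly in Msx1+ cells of day 16 (0.22). Epas1, which encodes HIF-2α, fell from 95.1 and 91.9 to 18.4 and 16.8 CPM at day 2 (log2 fold change -2.41, SE 0.073, edgeR adjusted p = 5.81e-18). In the sorted cells Epas1 had 153 and 158 CPM in Msx1- and 25.2 and 31.6 CPM in Msx1+ cells of day 8 and 246 and 278 against 25.6 and 25.6 CPM at day 16 (log2 fold changes -2.45 and -3.36). Epas1 is also expressed in endothelium. Endothelial markers summed to 118 and 122 CPM in GFP and 27.4 and 29 CPM in Dlx2 EBs, where all 5 tested fell. They summed to 197 and 203 CPM in Msx1- and 77.1 and 78.8 CPM in Msx1+ cells of day 8, and to 221 and 242 against 55.2 and 60.1 CPM at day 16, and on each of these days 2 of 6 rose and 3 fell. Of them, Emcn was at 0 in Msx1- replicate 1 of day 8 and in both ES libraries. ES cells had a sum of 132 and 126 CPM, of which Pecam1 held 104 and 101 CPM. The sum is thus no measure of endothelium alone. The part of endothelium in the Epas1 values was not tested. Vhl, the gene of the von Hippel-Lindau protein, rose in all 3 comparisons (0.24, 0.36 and 0.58), as did Arnt2, a partner subunit (0.86, 1.83 and 2.22). Hif3a fell at day 2 (-0.63) and rose at days 8 and 16 (0.83 and 1.29). Of these 8 genes, 3 rose and 3 fell at day 2, 4 rose and 2 fell at day 8, and 6 rose and 1 fell at day 16. The shares of all genes called higher were 34.1%, 30.4% and 31.1%, and those called lower 33%, 24.3% and 31%.

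Further hypoxia response genes outside the 36 went both ways. Of 21 tested, 7 rose and 10 fell at day 2, 7 rose and 10 fell at day 8, and 7 rose and 14 fell at day 16. Among all genes, 34.1%, 30.4% and 31.1% were called higher and 33%, 24.3% and 31% lower. Lox, lysyl oxidase, which cross-links collagen, had the largest rise, from 0.292 and 0.259 to 14.8 and 15.4 CPM at day 8 and from 3.99 and 4.87 to 299 and 312 CPM at day 16 (log2 fold change 6.10, SE 0.09, edgeR adjusted p = 1.72e-15). Stc2, a stanniocalcin gene, and Ak4, a mitochondrial adenylate kinase gene, fell at day 16 (-2.15 and -2.01). Rora, a nuclear receptor gene, rose at days 2 and 8 (2.09 and 2.44), and Gbe1, the glycogen branching enzyme gene, rose at day 8 (1.68). Angptl4 fell at day 2 (-1.63).

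Of 10 genes of the pyruvate dehydrogenase complex, its phosphatases and the pyruvate carrier, 4 rose and 3 fell at day 2, 2 rose and 4 fell at day 8, and 3 rose and 2 fell at day 16. Mpc2, a subunit of the mitochondrial pyruvate carrier, rose in each (1.28, 0.86 and 0.87), and Pdhb, a subunit of the E1 enzyme, fell in each (-0.70, -0.59 and -0.80). Pdp1, the phosphatase that reverses the action of the Pdk kinases, rose at days 8 and 16 (0.89 and 1.16), and Pdp2 fell at day 2 (-0.46). In the pentose phosphate and serine branches, 6 of 10 genes fell and 2 rose at day 2, 6 fell and 1 rose at day 8, and 7 fell and 1 rose at day 16. For both lists the background of genes called lower was 33%, 24.3% and 31%, and of genes called higher 34.1%, 30.4% and 31.1%. Psph and Psat1, enzymes of serine synthesis, fell in all 3 comparisons, Psph by -0.89, -0.87 and -1.24 and Psat1 by -0.85, -0.68 and -0.78. G6pdx, the entry enzyme of the pentose phosphate pathway, fell at day 2 (-0.84), Rpe at day 8 (-0.65) and Taldo1 at day 16 (-0.96).

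Of the other isozymes, of which 14 were tested at day 2, 5 rose and 4 fell, and of 19 tested later 4 rose and 4 fell at day 8 and 5 rose and 9 fell at day 16. Higher calls took 34.1%, 30.4% and 31.1% of all genes, and lower calls 33%, 24.3% and 31%. Hkdc1, a hexokinase-like gene, rose at day 2 from 0.162 and 0.162 to 1.32 and 1.53 CPM (3.10), and at day 16 it had 56.1 and 56.9 CPM in Msx1- and 4.88 and 3.66 CPM in Msx1+ cells (log2 fold change -3.73, SE 0.26, edgeR adjusted p = 4.09e-06). Fbp2, a fructose bisphosphatase gene, rose at day 2 (1.77) and fell at day 16 (-3.36), and Pgam2, the muscle mutase gene, rose at day 2 (1.45). Ldhc, the testis lactate dehydrogenase gene, fell at days 8 and 16 (-1.17 and -4.94) and was at no more than 2.29 CPM in Msx1- cells of those days. Pdk2 and Slc2a4, which encodes the insulin-responsive GLUT4, rose at day 8 (1.20 and 1.14).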

How the data were processed

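RNA was sequenced from 7 groups of 2 libraries, made with a NEBNext Ultra kit that does not mark strand, per the labels' protocols. The authors deposited raw read counts per gene in 2 tables, one for day 2 and one for ES cells and days 8 and 16. The build GRCm38 and the tools HISAT2 2.1.0, fastp 0.20.0 and DESeq2 1.18.1 are listed, with no order, per the submitters' processing notes. Which program counted reads, and on which annotation, was not given in the sources used here. Columns of the day-2 table give the line and number but not doxycycline, and were read as the induced samples.

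Counts were fitted with edgeR 4.0.16 (limma 3.58.1, R 4.3.3) as deposited: low counts were removed with filterByExpr, libraries scaled by TMM, and groups compared by the quasi-likelihood test with Benjamini-Hochberg adjustment over all genes tested and a threshold of 0.05. SE is the log2 fold change divided by the square root of F. Fits were made for day 2, for the 4 sorted groups, and for these with ES cells, so levels of the 2 tables are scaled apart. The test was tried on simulated data. For day 2 it recovered 81.2% of genes changed 1 log2 unit and 99% of those changed 2 among 18130 genes. For day 8 it recovered 66% and 74.2% among 21410. False calls were 9 for day 2 and 8 for day 8. Only 96 genes of each size were changed for day 2, up and down alike. Far more genes were called in the data, so these rates need not hold there. Replicates of a group differed by more than counting noise in all 7 groups (chi-square per degree of freedom from 4.4 to 20.2), so none was counted as 1 library.

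All 36 members are named, and of other pathway genes the called ones with the largest absolute change, at most 3 a list and comparison, plus Hif1a, Epas1 and Vhl. The members, lists and tests were chosen with earlier results of these data known. Coordinates come from GENCODE vM21 (GRCm38) and promoters from RefSeq (GRCm38.p6). Alternatives were median-ratio (RLE) scaling, library size alone, no filter, at least 1 CPM in at least 4 libraries, DESeq2 1.42.0, a replicate block and each library left out. For shares the alternative was the longest transcript, for promoters ACGTG alone. Gapdh with its pseudogene rows was added after seeing the data.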

Additional observations from a re-analysis of the deposited data

Results flagged for a closer look

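For 28 members the difference between Msx1+ and Msx1- cells was not the same at days 8 and 16, by a test of the difference itself (edgeR, adjusted p under 0.05 over all genes). Of all 22294 genes, 28.6% were called in this test (10.3% higher, 18.3% lower). With library size alone, the share of higher calls among all called genes went from 35.9% to 15.5%. Values given for members are the log2 effect at day 16 minus that at day 8. Among transporters they were -0.64 for Slc2a1, -0.58 for Slc2a3 and -0.66 for Slc16a3. In upper glycolysis they were -0.53 for Hk2, -0.50 for Gpi1, -0.77 for Pfkl, 0.52 for Pfkm, -1.35 for Pfkp, -0.56 for Aldoa and -0.80 for Aldoc. In lower glycolysis they were -0.23 for Pgam1, -0.35 for Eno1, 0.54 for Eno2, 0.95 for Eno3 and -0.41 for Pkm. For the fate of pyruvate they were -0.30 for Ldha, -0.75 for Ldhb, -0.50 for Pdk1 and 0.45 for Pdk3.

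Among the hypoxia genes the values were -0.53 for Egln1, -1.69 for Egln3, -1.18 for Bnip3, -2.05 for Ankrd37, -0.53 for Vegfa, -1.69 for Ndrg1, -0.73 for Ddit4, -1.35 for P4ha1 and -2.05 for P4ha2. The calls of Pgam1, Eno2, Egln1, Ldha and Pdk3 were lost under at least 1 alternative, Ldha without Msx1- replicate 1 of day 8 (edgeR adjusted p = 0.12) and Pdk3 with library size alone (0.0609).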

How the results depend on the processing

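Counts of members called higher or lower stayed within 1.5 times the reported count under every alternative run, except that 2 members in place of 4 were called higher for the difference of days 16 and 8 with library size alone. With 1 library left out, 4 to 7 members were called higher and 21 to 23 lower at day 2, 7 and 21 to 23 at day 8, 5 to 7 and 25 at day 16, and 3 to 4 and 21 to 25 for the difference of days. A lone library was then assumed to vary like the other groups. The first-named isozyme led in 53 of 77 combinations of family and group by the union of exons and in 56 with the longest transcript. The motif was in 31 member genes, and ACGTG alone in 21.

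Direction changed for uncalled values alone. With 1 library left out, Aldoc at day 2 ran from -0.43 to 0.03 (the latter without GFP replicate 2) and Pfkfb4 from -0.01 (without GFP replicate 1) to 0.23. At day 8 Hk1 ran from -0.03 to 0.13, Gapdh from -0.94 to 0.15 and Ankrd37 from -0.15 to 0.12, each crossing 0 without Msx1+ replicate 2, and Egln1 at day 16 ran from -0.22 to 0.04 (without Msx1- replicate 2). With library size alone Ldhb had 0.10 at day 2, and Ankrd37 0.14 and Ddit4 0.05 at day 8. Ankrd37 had 0.01 without a filter, and Hk1 -0.00 with median-ratio scaling and with DESeq2. The cause was not tested.

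Deviations of same-numbered libraries correlated between -0.047 and 0.117. This shows no sign of pairing by replicate number, but it cannot exclude that samples were paired. With the replicate block, members called higher and lower were 7 and 24 at day 2, 9 and 22 at day 8, 7 and 26 at day 16, and 4 and 24 for the difference of days. Against ES cells the block gave 16 and 13 in Msx1+ and 23 and 3 in Msx1- cells of day 8, and 14 and 20 in Msx1+ and 22 and 9 in Msx1- cells of day 16. Within fractions it gave 9 and 23 over time in Msx1+ and 11 and 12 in Msx1- cells.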
